A study of Arabidopsis thaliana with 6 samples.

Results

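The type-A Arabidopsis response regulators (ARRs) are a family of 10 genes, ARR3 to ARR9 and ARR15 to ARR17, taken here by locus code from the 28259 loci of the count tables, and all 10 were present. Type-A regulators are short proteins built around a receiver domain. Cytokinin is sensed by histidine kinase receptors, the phosphate is passed through histidine phosphotransfer proteins to the nucleus, and there it activates the type-B regulators, which are transcription factors. Type-A genes are among the first targets that type-B factors switch on, and their proteins dampen the pathway in turn, so their transcripts are widely used as a readout of cytokinin signalling. In Arabidopsis immunity, cytokinin has been tied to salicylic acid defence, with type-A regulators as a brake on it.

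Transcripts were measured in whole seedlings of the wild-type Columbia accession (Col-0), 10 days old and raised with 10 h of light and 14 h of dark per day. All seedlings first stood in water overnight in the light. The water was then exchanged for 3-hydroxydecanoic acid (3-OH-C10:0), a bacterial medium-chain 3-hydroxy fatty acid that the receptor kinase LORE senses, or for its solvent dimethyl sulfoxide (DMSO), and tissue was taken after 8 h. The dose of 3-OH-C10:0 is 5 microM in one label and 5 mM in another, and was not resolved here. Each group had 3 libraries, with between 18064723 and 27131500 estimated counts per library. No source used here says whether the replicates were separate cultures, or how many seedlings a library held, so the p-values cover variation among the 6 libraries, which may be technical.

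Levels per library are CPM, counts per 1e6 counts of a library, after TMM scaling (a trimmed mean of log ratios between libraries), and means are given ± SD with n = 3 per group. In a single library 3 counts equal between 0.111 and 0.166 CPM, and this limit covers counting error only. FPKM, which also divides by transcript length, is used wherever genes are compared with each other. Log2 fold changes are 3-OH-C10:0 over DMSO ± standard error, from edgeR's quasi-likelihood test. The standard error was derived as the absolute log2 fold change divided by the square root of the test's F statistic. "Rose" or "fell" means a Benjamini-Hochberg adjusted p under 0.05 over the 19768 genes tested. In whole seedlings, fewer cells of a type and less RNA per cell cannot be told apart.

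After 3-OH-C10:0, ARR4, ARR6, ARR9 and ARR16 fell, ARR5 rose, and ARR3, ARR7 and ARR8 did not pass the test. ARR15 and ARR17 had too few counts to be tested. Thus 4 of the 8 tested genes fell and 1 rose, while over all tested genes 35.8% fell, 35.6% rose and 71.4% did either. The median log2 fold change of the 8 tested genes was -0.65, against -0.04 over all tested genes. The libraries of the 2 groups did not overlap for 5 of the 8, and treated libraries were the lower ones in 4 of these; over all tested genes 75.9% did not overlap and 38.2% did so with treated libraries lower, so these counts are near the background. Every one of the 60 count values of the family was a whole number, so no fragment had been divided between these genes and another locus in the deposited estimates.

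**Figure D1:**
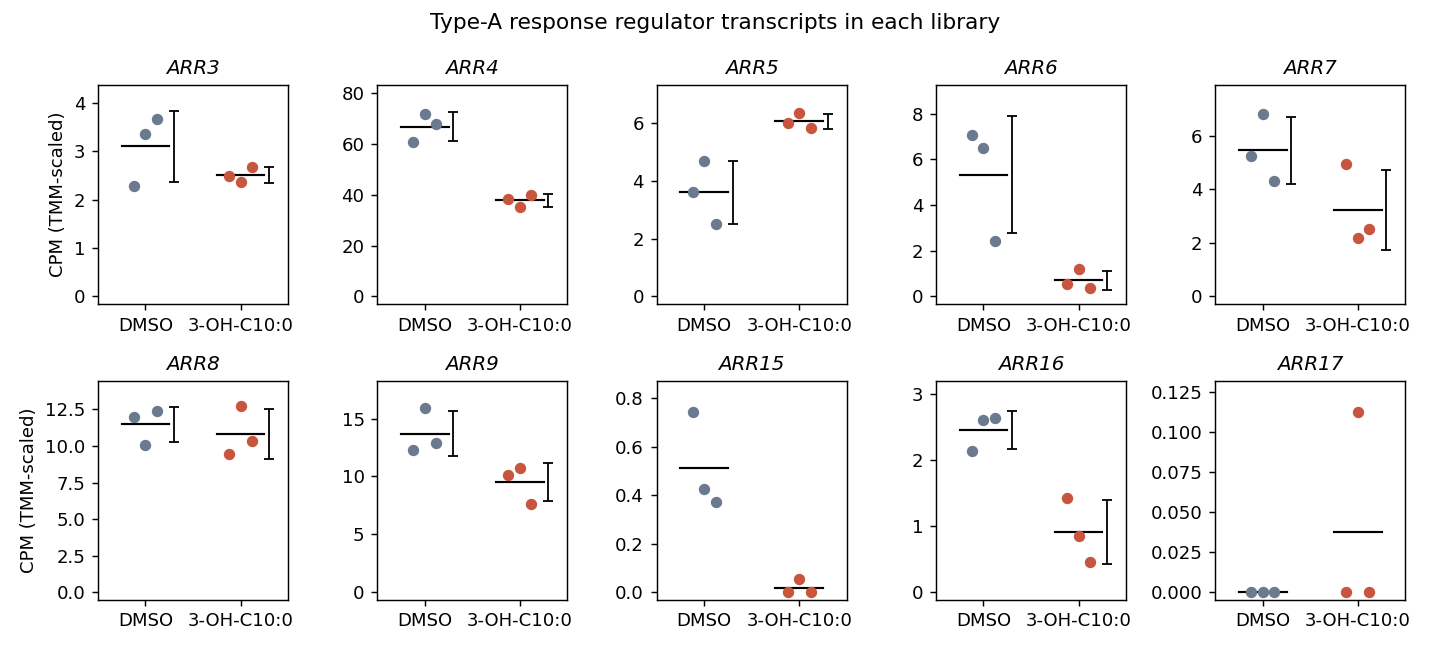
TMM-scaled CPM of each of the 10 genes (y axis, linear, a scale of its own per gene) in the 3 DMSO and the 3 3-OH-C10:0 libraries; points are libraries, horizontal bars group means and error bars SD (not drawn for ARR15 and ARR17, which were not tested). The groups are apart for ARR4, ARR5, ARR6, ARR9, ARR15 and ARR16, and among these the treated libraries are the higher ones for ARR5.

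ARR5 and ARR6 are each other's closest relatives in the family, with 80.1% identical bases over 552 aligned coding bases, and they moved in opposite directions. Both belong to the type-A genes that cytokinin induces most quickly, and the ARR5 promoter drives a common cytokinin reporter. ARR5 (AT3G48100, listed as RR5) occupies bases 17758427 to 17760950 of chromosome 3 (minus strand, 5 exon blocks). ARR6 (AT5G62920) occupies bases 25252007 to 25254318 of chromosome 5 (minus strand, 5 exon blocks). Coordinates throughout are those of the TAIR10.1 annotation, matched by locus code, and all values refer to whole genes rather than to an exon or intron.

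ARR5 stood at 3.62, 4.67 and 2.502 CPM in the DMSO libraries and at 6.01, 6.34 and 5.82 CPM in the treated libraries. All treated libraries lay above all DMSO libraries, and the DMSO libraries were the more scattered. ARR5 rose by a log2 fold change of 0.75 ± 0.207 (adjusted p = 0.00733), from 3.597 ± 1.09 to 6.06 ± 0.266 CPM.

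ARR6 stood at 7.08, 6.52 and 2.41 CPM in DMSO and at 0.560, 1.18 and 0.383 CPM after treatment. DMSO replicate 3 was the lowest of the controls, as it was for ARR5, yet every treated library was lower still. ARR6 fell from 5.34 ± 2.55 to 0.707 ± 0.418 CPM, a log2 fold change of -2.97 ± 0.537 (adjusted p = 0.00151), the largest change among the tested genes of the family. The gene on the other strand, AT5G62910, overlaps ARR6 by 348 bases and rose from 18.4 ± 0.458 to 27.1 ± 1.57 CPM. Counts of both genes were whole numbers in all 6 libraries, so reads had not been divided between them. Whether counting used strand is not stated in the labels, so it is not known to which gene reads from the overlap were given.

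Within each library, ARR5 was at 0.362, 0.508 and 0.738 times the FPKM of ARR6 in DMSO, and at 7.65, 3.82 and 10.7 times after treatment. By FPKM, ARR6 was the more abundant of the 2 in all control libraries, and ARR5 in all treated ones. In DMSO replicate 3 the counts were close, 54 for ARR5 and 52 for ARR6, and the annotated exon lengths are 1450 and 1459 bases. The order in that library therefore rests on the lengths behind the deposited FPKM, which were not examined here. The log2 ratio, with 0.1 FPKM added to each gene, went from -0.94 ± 0.508 to 2.57 ± 0.652. This is a shift of 3.503, with an exact permutation p of 0.1, two-sided, the smallest that 3 against 3 libraries allow (0.15 adjusted over the 3 pairs compared). Ratios of ARR7 to ARR15 and of ARR16 to ARR17 were planned but not computed. The adjustment does not cover these pairs, in which ARR15 or ARR17 had too few counts to be tested.

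The 250 bases upstream of the annotated starts are shown for ARR5, which rose, for its pair partner ARR6, and for ARR15, whose transcript was at or near 0 after treatment. They are read 5′ to 3′ on the gene's strand from the TAIR10.1 assembly of RefSeq, at chr3:17760951-17761200 for ARR5, chr5:25254319-25254568 for ARR6 and chr1:28133026-28133275 for ARR15, all on the minus strand. Capitals mark AGATT or its reverse complement AATCT, the core that type-B regulators bind, and TTGAC or GTCAA, the core of the W box that WRKY factors bind.
ARR5: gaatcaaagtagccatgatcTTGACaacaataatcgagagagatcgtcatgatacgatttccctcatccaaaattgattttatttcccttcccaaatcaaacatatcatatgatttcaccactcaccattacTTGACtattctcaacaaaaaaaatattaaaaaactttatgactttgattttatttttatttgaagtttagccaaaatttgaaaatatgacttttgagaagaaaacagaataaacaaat
ARR6: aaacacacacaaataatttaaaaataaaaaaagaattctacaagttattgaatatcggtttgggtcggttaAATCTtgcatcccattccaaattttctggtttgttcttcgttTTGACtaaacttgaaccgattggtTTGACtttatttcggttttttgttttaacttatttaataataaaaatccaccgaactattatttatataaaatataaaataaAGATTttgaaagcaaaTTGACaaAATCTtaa
ARR15: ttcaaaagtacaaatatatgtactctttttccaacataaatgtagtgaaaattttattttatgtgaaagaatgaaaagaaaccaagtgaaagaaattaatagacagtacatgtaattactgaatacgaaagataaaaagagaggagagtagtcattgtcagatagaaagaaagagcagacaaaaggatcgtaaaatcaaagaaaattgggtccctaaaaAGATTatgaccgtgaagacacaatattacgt

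The ARR5 window held no AGATT and 2 TTGAC matches, the ARR6 window 3 of each, and the ARR15 window 1 AGATT and no TTGAC. In ARR6 the nearest bases of the AGATT matches lay 175, 27 and 4 bases before the start, and in ARR15 the match lay 27 bases before it. Across the family 7 of 10 windows held AGATT on either strand, those without being ARR4, ARR5 and ARR17, and 5 of 10 held TTGAC. Among the windows of 27443 protein-coding genes, 63.7% held AGATT and 44.9% TTGAC, so both counts in the family are close to what any set of genes shows. The related core GGATT (reverse complement AATCC) was in 6 of the 10 windows and in 38.0% of all windows. No match of one motif overlapped a match of another in the 10 windows. These are letters in a window, and binding was not measured.

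ARR4, which binds the photoreceptor phytochrome B and with ARR3 affects the period of the circadian clock, was by far the most abundant of the family. It occupies bases 3441988 to 3444360 of chromosome 1 (AT1G10470, minus strand). ARR4 stood at 60.8, 71.9 and 67.6 CPM in DMSO and at 38.5, 35.0 and 40.0 CPM in treated libraries. The groups were far apart relative to their spread. ARR4 fell from 66.8 ± 5.60 to 37.8 ± 2.59 CPM, with a log2 fold change of -0.82 ± 0.0901 and an adjusted p of 1.27e-05.

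ARR3, the closest relative of ARR4 (AT1G59940, chromosome 1, 22065617 to 22067233, minus strand; 81.0% coding identity), was at 2.28, 3.35 and 3.66 CPM in DMSO. In treated libraries it was at 2.495, 2.36 and 2.68 CPM, within the range of the controls. Its log2 difference of -0.30 ± 0.218 did not pass (adjusted p = 0.236). ARR3 amounted to 0.0455, 0.0566 and 0.0656 of the ARR4 level in FPKM in DMSO, and to 0.0788, 0.0817 and 0.0810 after treatment. These ratios did not overlap, with a shift of 0.55 in the log2 ratio (exact permutation p = 0.1, two-sided, the smallest possible, and 0.15 adjusted over the 3 pairs).

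ARR7 and ARR15 are a pair known for their role in the shoot apical meristem, where the stem cell factor WUSCHEL represses them. ARR7 (AT1G19050, chromosome 1, 6577833 to 6579314, minus strand) was at 5.25, 6.80 and 4.31 CPM in DMSO and at 4.94, 2.19 and 2.53 CPM in treated libraries. Treated replicate 1 lay among the controls, and the other two treated libraries lay below all of them. The log2 difference of -0.77 ± 0.308 had an adjusted p of 0.0501, just outside the threshold. It was negative under all 13 alternatives and past the threshold in 7 of them. With a library left out it ranged from -1.192 to -0.562, and its adjusted p from 0.00189 to 0.161. It passed without treated replicate 1, where it was largest, and without DMSO replicate 3. It did not pass without DMSO replicate 1 or 2, or without treated replicate 2 or 3.

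ARR15 (AT1G74890, chromosome 1, 28131447 to 28133025, minus strand) shares 76.7% of aligned coding bases with ARR7. It had 15, 9 and 8 counts in the DMSO libraries and 0, 1 and 0 in the treated libraries. Every treated library was thus below every control, at a level too low to enter the test. Over the groups, 32 counts against 1 gave a DMSO level 32.3 times that of treated seedlings, with a 95% counting interval of 5.4 to 1320. This interval pools the libraries of a group and covers counting error only, not variation between libraries. In the fit without the filter its adjusted p was 0.000697.

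Beside ARR7 and ARR15, the shoot meristem markers were sparse: WUS had 1 count in DMSO and none after treatment, and CLV3, the stem cell peptide, had 1 count in each group. STM, which maintains the meristem, stood at 2.498 ± 0.277 CPM in DMSO and 2.02 ± 0.492 CPM after treatment (log2 difference -0.32, adjusted p = 0.231). Summed over the 3 markers, the level was 2.22 to 2.87 CPM in DMSO and 1.68 to 2.64 CPM in treated libraries. Their part in the ARR7 and ARR15 levels was not tested.

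ARR8 and ARR9 form a pair with 80.1% coding identity, and both act as negative regulators of the cytokinin response. ARR9 (AT3G57040, chromosome 3, 21109059 to 21111567, plus strand) was at 12.3, 15.9 and 12.9 CPM in DMSO and at 10.1, 10.7 and 7.65 CPM after treatment. The groups did not overlap, although the gap between the lowest control and the highest treated library was small. ARR9 fell by 0.54 on the log2 scale (SE 0.151, adjusted p = 0.00820).

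ARR8 (AT2G41310, chromosome 2, 17221840 to 17224880, plus strand) is listed as RR3 in the tables, a symbol that is easily taken for ARR3. It was at 11.98, 10.1 and 12.4 CPM in DMSO and at 9.42, 12.7 and 10.3 CPM after treatment. The groups were interleaved, and the log2 difference of -0.09 ± 0.137 did not pass (adjusted p = 0.578). The ARR8 to ARR9 ratio in FPKM overlapped between groups, at 0.472 to 0.722 in DMSO and 0.691 to 1.0 in treated libraries (exact permutation p = 0.3, two-sided, and 0.3 adjusted over the 3 pairs). A decline in ARR9 and none detected in ARR8 therefore does not show that the genes of this pair behaved differently. Non-coding genes on the other strand overlap ARR8 by 299 bases and ARR9 by 231 bases, and these were not analysed here.

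**Figure D2:**
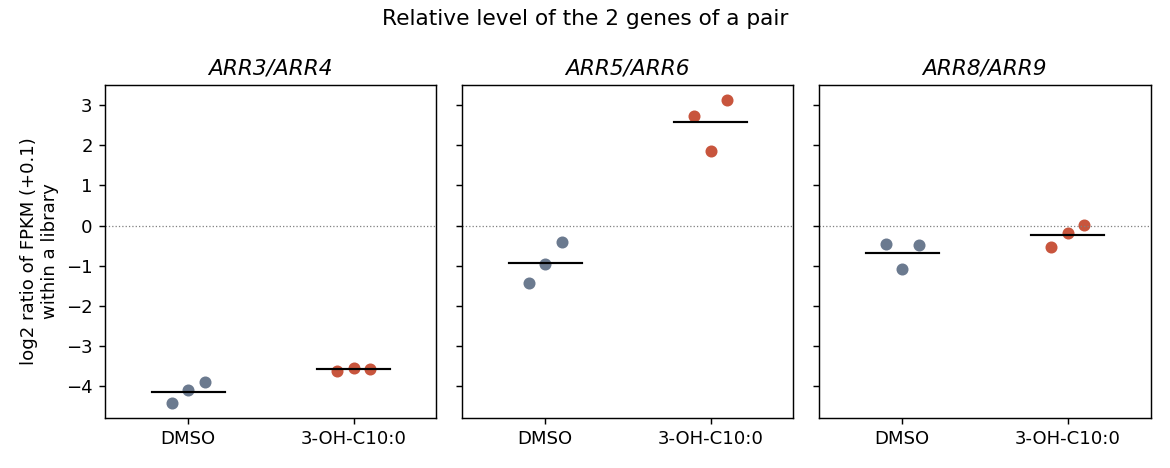
Log2 ratio of FPKM (with 0.1 added) within each library for 3 pairs of close relatives (y axis), by group (x axis); points are libraries and bars are group means. The ARR5 to ARR6 ratio goes from below 0 in all DMSO libraries to above 0 in all treated libraries, a shift of 3.503, against 0.55 for ARR3 to ARR4 and 0.44 for ARR8 to ARR9. Ratios of ARR7 to ARR15 and of ARR16 to ARR17 were not computed, so their shifts are not compared here.

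ARR16 and ARR17 are a pair of short type-A regulators, and in leaves they have been linked to divisions of the stomatal lineage. ARR16 (AT2G40670, listed as RR16, chromosome 2, 16969673 to 16972113, plus strand) was at 2.13, 2.60 and 2.64 CPM in DMSO and at 1.43, 0.842 and 0.459 CPM after treatment. All treated libraries were below all controls, with the wider spread on the treated side. ARR16 fell by 1.47 on the log2 scale (SE 0.349, adjusted p = 0.00311). The guard cell markers FAMA (log2 difference -0.10, adjusted p = 0.447) and KAT1 (-0.06, adjusted p = 0.724) did not pass, and MYB60, a guard cell transcription factor, fell by 1.53. Their summed level was 28.6 to 29.9 CPM in DMSO and 21.0 to 23.3 CPM in treated libraries, and its part in the ARR16 level was not tested.

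ARR17 (AT3G56380, listed as RR17, chromosome 3, 20905264 to 20906397, plus strand) had no count in 5 libraries and 2 counts in treated replicate 2. The absence of counts in DMSO allows a level of up to 0.0476 CPM over that group. No fold was computed, because both groups lie under the floor of 3 counts. ARR17 shares 84.7% of aligned coding bases with ARR16, the closest pair of the family, and the longest run the 2 transcripts have in common is 23 bases.

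Per length, the family was dominated by ARR4. In DMSO seedlings ARR4 was at 53.9 ± 3.74 FPKM and ARR9 at 10.4 ± 1.27 FPKM, each clear of the gene below it. From ARR7 (6.94 ± 1.49) through ARR8, ARR6, ARR16 and ARR3 to ARR5 (2.69 ± 0.771 FPKM), each gene overlapped the next, so the order of neighbours is not resolved. Genes further apart were separate: ARR7 and ARR8 lay above ARR16, ARR3 and ARR5 in every DMSO library, and ARR16 lay above ARR5. In DMSO replicates 1 and 2 ARR16 had fewer counts than ARR5 (43 and 55 against 73 and 99). Its place above ARR5 therefore rests on the lengths behind the deposited FPKM. ARR15 (0.853 ± 0.345 FPKM) was below all of these, and ARR17 was listed at 0.

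After treatment ARR4 still led, at 28.8 ± 1.61 FPKM, followed by ARR9 at 6.82 ± 1.23 and ARR8 at 5.78 ± 0.994 FPKM, which overlapped. ARR5 came next (4.28 ± 0.243 FPKM) and overlapped ARR7 (3.86 ± 1.77 FPKM). ARR6, whose DMSO libraries spanned 2.56 to 7.57 FPKM, was at 0.707 ± 0.427 FPKM, where its range overlapped that of ARR16 (1.44 ± 0.734 FPKM).

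The summed FPKM of the 10 genes was 90.2, 101 and 90.7 in DMSO and 56.4, 54.1 and 51.8 after treatment. The treated sum was 0.575 of the control sum (exact permutation p = 0.1, two-sided, the smallest possible). Without ARR4 the sum went from 40.2 ± 4.38 to 25.3 ± 3.24 FPKM, or 0.630 of the control (exact permutation p = 0.1), so the lower sum did not rest on ARR4 alone. ARR4 made up 55.1% to 60.7% of the sum in DMSO and 50.0% to 58.4% after treatment, ranges that overlapped. ARR5 made up 2.84% ± 0.674 of the sum in DMSO and 7.92% ± 0.478 after treatment, and ARR6 5.96% ± 2.85 and 1.303% ± 0.787, each without overlap between groups (exact permutation p = 0.1, 0.167 adjusted over the 10 shares). Such separation was not particular to this pair. The shares of ARR3 and ARR8, higher after treatment, and of ARR15 and ARR16, lower, did not overlap either, with the same p-values from that test. For ARR8 the share went from 6.95% ± 1.24 to 10.7% ± 1.96.

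**Figure D3:**
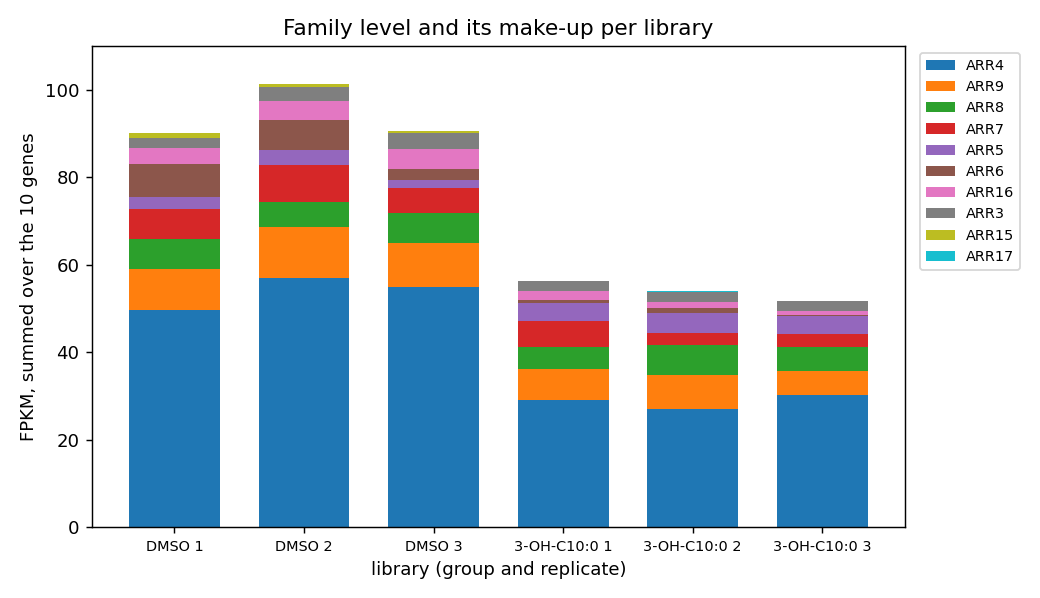
Stacked FPKM of the 10 genes (y axis, linear from 0) in each of the 6 libraries (x axis), with colours for genes in order of mean level. The sums lie between 90.2 and 101 in DMSO and between 51.8 and 56.4 after 3-OH-C10:0, and ARR4 is the largest portion of every bar.

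The 3 tested genes whose library pattern was most like that of ARR4 were AT5G01660, AT1G36320 and TOC33 (AT1G02280), a receptor of the plastid protein import machinery. Their root mean square distances from the ARR4 pattern, over centred log2(CPM + 0.5) in the 6 libraries, were 0.0297, 0.0327 and 0.0336. AT1G36320 went from 94.6, 109 and 99.0 CPM in DMSO to 57.3, 54.5 and 61.8 CPM after treatment. AT5G01660 was at 0.617 to 1.70 CPM over the 6 libraries, where the added 0.5 CPM shrinks differences, and its fitted log2 fold change was -1.12 against -0.82 for ARR4. Of the 19767 other tested genes, 257 lay within a distance of 0.1 of ARR4.

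The other tested genes of the cytokinin pathway were described by role, from 77 listed genes of which 58 had enough counts. Of these 58, 16 rose and 24 fell, with a median log2 fold change of -0.26; over all tested genes 35.6% rose and 35.8% fell. Among the receptors AHK3 rose (0.46) while AHK2 (-0.42) and AHK4 (-0.46) fell. In the AHP family, named after histidine phosphotransfer, AHP2 rose (0.45) and AHP4 fell (-2.89 ± 0.793, adjusted p = 0.0152). The other 4 did not pass: AHP1 (0.21), AHP3 (-0.13), AHP5 (-0.18) and AHP6 (-0.27). Whether each member transfers phosphate was not examined. AHP4 had 0, 2 and 32 counts in the treated libraries; its log2 fold change was -6.001 without treated replicate 3, and -3.06 with the DESeq2 Wald test, where the adjusted p was 0.0565.

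The type-B regulators act upstream of the type-A genes. Of 6 tested, ARR1 (0.32), ARR2 (0.83), ARR10 (0.51) and ARR12 (0.25) rose, and ARR11 (-0.48) and ARR14 (-1.17) fell. ARR12 lost its call in 6 of 13 alternatives (adjusted p up to 0.11), namely total-count scaling, both tests on FPKM, and without DMSO replicate 1, DMSO replicate 2 or treated replicate 2. ARR1 lost its call in both tests on FPKM, and ARR11 without treated replicate 1 (adjusted p = 0.0522). KMD1 (1.08) and KMD2 (0.72), F-box proteins that target type-B factors for degradation, rose as well, while KMD3 (0.84) and KMD4 (-0.11) did not pass. The type-C regulators ARR22 and ARR24 had no counts.

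Of 6 tested other genes that cytokinin induces, GATA21 (-1.20) and GATA22 (-1.39), GATA factors of greening, the D-type cyclin CYCD3-1 (-0.92), IAA3 (-1.34) and SOB5 (-1.28) fell, and HAT22 (0.85), a homeodomain factor, rose. IAA3 lost its call without treated replicate 1 (adjusted p = 0.0507). Of 6 cytokinin response factors, which are AP2 transcription factors, CRF1 (-0.78), CRF2 (-0.63), CRF3 (-1.05), CRF4 (-0.46) and CRF6 (-0.43) fell, and CRF5 (-0.41) did not pass. CRF1 lost its call in 4 of 13 alternatives, namely with DESeq2 and without DMSO replicate 2, DMSO replicate 3 or treated replicate 3 (adjusted p 0.0573 to 0.104). CRF6 lost it without treated replicate 1 or 2 (adjusted p 0.0596 and 0.0619).

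Genes of cytokinin supply and removal included CKX2, CKX4 and LOG5, which rose at least 8-fold, as did 3.96% of all tested genes. CKX2, an oxidase that breaks cytokinins down, was at 0.297, 0.567 and 0.324 CPM in DMSO and at 33.0, 28.4 and 23.1 CPM after treatment (log2 fold change 6.12 ± 0.231, adjusted p = 4.74e-09). CKX4 rose from 1.15 ± 0.334 to 16.6 ± 0.622 CPM, while CKX6 (-0.98) and CKX7 (-1.02) fell and CKX1, CKX3 and CKX5 did not pass. UGT85A1, a glucosyltransferase that can act on trans-zeatin, rose from 95.4 ± 9.79 to 705 ± 73.2 CPM, and UGT73C5 rose (0.92), while UGT73C1 fell (-0.80) and UGT76C1 (-0.24) and UGT76C2 (-0.33) did not pass.

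On the supply side no synthesis gene rose. Of 6 tested, the isopentenyltransferases IPT3 (-1.93), IPT5 (-0.92) and IPT9 (-0.69) fell, and IPT2, CYP735A1 and CYP735A2 did not pass. LOG5, which releases active cytokinin bases from their nucleotides, rose from 0.761 ± 0.0705 to 6.39 ± 0.664 CPM, while LOG1 (-0.30), LOG3 (-0.996) and LOG8 (-0.52) fell and LOG7 did not pass. LOG3 lost its call in 7 of 13 alternatives, 4 of them with DMSO replicate 1 or 3 or treated replicate 1 or 3 left out (adjusted p up to 0.137). LOG1 lost it in 3, with DESeq2 and without treated replicate 1 or 2 (adjusted p 0.0503 to 0.0551). Among transporters PUP14 (0.48) and ENT3 (1.22) rose, and ABCG14 (0.02) and PUP1 (0.04) did not pass.

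**Figure D4:**
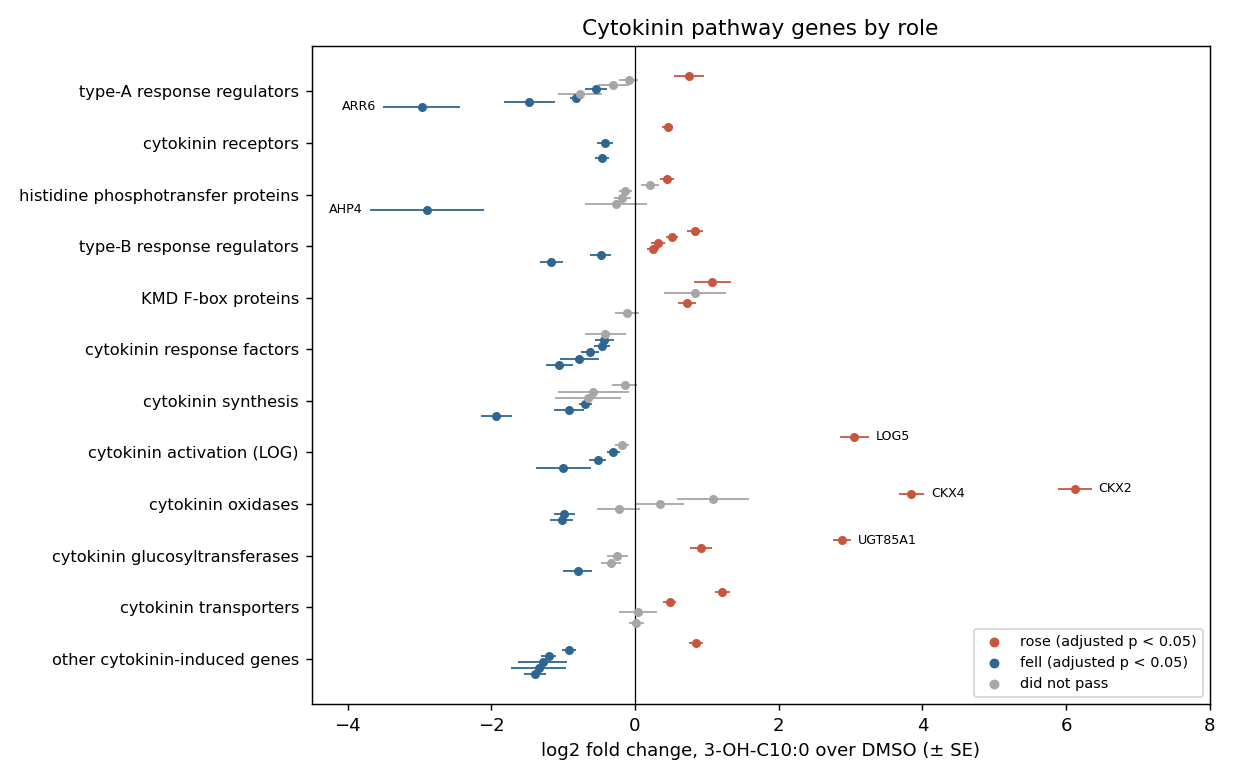
Log2 fold change ± SE (x axis) of the 8 tested type-A genes and the 58 tested other cytokinin genes, grouped by role (y axis); colours mark genes that rose, fell or did not pass at an adjusted p of 0.05. Type-A genes lie between -2.97 and 0.75, and the rightmost points are CKX2 (6.12), CKX4 (3.85) and LOG5 (3.06).

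As sets, root and leaf markers were expressed in every library, and several of them moved with the treatment. The root marker AGP30 had only 3, 2 and 1 counts in the treated libraries. The 4 leaf mesophyll markers all fell, with log2 fold changes of -1.56 for RBCS1A, -1.67 for LHCB1.3, -2.88 for CA1 and -2.06 for GLDP1, and their sum went from 40680 to 43480 CPM in DMSO to 9760 to 15130 CPM in treated libraries. Of the 8 root markers, CASP1 (-0.54), COBL9 (-0.77), AGP30 (-7.34), PLT1 (-0.71) and PLT2 (-0.68) fell, SCR (0.23) rose, and SHR (-0.24) and EXPA7 (0.11) did not pass. Their sums were 96.2 to 105 CPM in DMSO and 78.4 to 82.3 CPM in treated libraries. A large part of that difference was AGP30, which went from 16.3 ± 4.11 to 0.101 ± 0.0581 CPM. The phloem markers SUC2 (0.76) and APL (0.40) rose, with sums of 178 to 193 and 298 to 333 CPM. Calls lost in some alternatives were those of SCR (6 of 13), PLT2 (4) and APL (3). SCR and APL lost theirs without DMSO replicate 1 or treated replicate 2, SCR also without treated replicate 1, and PLT2 without DMSO replicate 3 or treated replicate 1 or 2. The part of these markers in the type-A levels was not tested.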

How the data were processed

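RNA-seq was made from 3 DMSO and 3 3-OH-C10:0 libraries, grouped by the sample titles. The submitters' processing notes name RSEM, StringTie 1.3.1, HISAT2 2.2.4, Bowtie2 2.2.8, fastp 0.18.0 and the TAIR10 build, without their order; strandedness is not stated in the labels. The estimated counts, deposited by the authors without normalisation per the file headers, were not all whole (3.46% to 3.85% of values per library) and were rounded. FPKM values were used as deposited by the authors.

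Genes were kept by filterByExpr (minimum count 10), which left 19768, scaled by TMM and tested two-sided with edgeR 4.0.16 (R 4.3.3, robust quasi-likelihood fits, no replicate block). Levels of the family per length and pair ratios used FPKM and exact permutation tests over libraries; coding identity came from global alignment with Biopython 1.88. Alternatives used DESeq2 1.42.0 and limma 3.58.1. The fit was tested on simulated data with a common dispersion and few changed genes. In the real data 71.4% of tested genes were called, so the simulation does not check the fit under changes this wide. All 107 listed loci matched the files and the TAIR10.1 annotation. Members and lists were chosen with earlier results of these data known, and the motifs after the values were seen. Named genes were all 10 members, all tissue markers and, per pathway list, up to 4 past the threshold with the smallest p, plus non-passing members of lists of up to 6; any further gene was named after its values were seen. All same-group library pairs differed by more than sampling noise (chi-square per gene 4.72 to 23.1). The highest values, 23.1 and 22.8, were those of treated replicate 3 against treated replicates 1 and 2, which gave 4.72 against each other.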

Additional observations from a re-analysis of the deposited data

How the results depend on the processing

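Across the 13 alternatives (other scalings, no filter on low counts, DESeq2, limma on FPKM, the replicate block and each library left out) 1 type-A gene rose and 4 or 5 fell in every one. ARR4, ARR6, ARR9 and ARR16 stayed lower and ARR5 higher, past the threshold in all 13. With the replicate block 1 rose and 5 fell, ARR7 being the addition (adjusted p = 0.0314). Replicate numbers were not taken to pair libraries, since deviations of same-numbered libraries correlated at 0.0414, -0.0099 and 0.136. Without DMSO replicate 1, ARR3 passed (adjusted p = 0.0485). The ARR6 log2 fold change was -1.89 to -3.05 over the other settings, smallest with a pseudocount of 1 FPKM, and -2.62 to -3.50 with a library left out. The ARR5 to ARR6 shift was 2.43 with a pseudocount of 1, a value that shrinks low ratios by construction. The log2 change of the family sum went from -0.798 to -0.715 with FPKM rescaled by TMM factors. Total-count scaling moved the median of all genes to -0.12. Directions that turned were all in genes that did not pass. ABCG14 turned to -0.065 under total-count scaling and to -0.062 and -0.067 with limma at pseudocounts of 1 and 0.1, PUP1 to -0.049, -0.031 and -0.036. With a library left out the ranges were -0.208 to 0.007 for ARR8, -0.689 to 0.051 for AHP6, -0.271 to 0.019 for KMD4, -0.241 to 0.02 for IPT2, -0.47 to 0.022 for CKX5, -0.056 to 0.123 for ABCG14, -0.16 to 0.315 for PUP1 and -0.123 to 0.045 for KAT1. Low counts limit ARR15 and ARR17.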
